A study of Mus musculus with 6 samples.

Results

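Genes of the integrated stress response were examined in stimulated mouse CD4+ T cells that received MAPK13-IN-1, an inhibitor of the p38 family kinase encoded by *Mapk13*, or its solvent DMSO. They are the 4 kinases of the translation initiation factor eIF2 alpha (*Eif2ak1*, *Eif2ak2*, *Eif2ak3* and *Eif2ak4*), *Atf4*, its partners and relatives among bZIP transcription factors (*Atf5*, *Ddit3* and *Cebpg*) and its feedback factors (*Ppp1r15a* and *Trib3*), chosen by symbol. All 10 were found among the 35602 genes of the count table, all 10 were among the 16269 genes kept for testing by a filter on low counts, and all 10 are listed among the 34714 genes of the replicate 1 tables. CD4+ T cells from mouse spleen were stimulated through CD3 and CD28 for 72 h, and their mRNA was sequenced, with 3 libraries per group, to compare transcripts with and without the inhibitor. Replicates 2 and 3 of each group came from mice labelled WT and were grown in 10% fetal bovine serum. Their labels place the addition of 17.1 µM inhibitor, or of 0.1 µl DMSO, after day 1 of stimulation, whereas the study's design text has the inhibitor there throughout the 72 h, so the length of exposure is uncertain. For the replicate 1 pair, whose libraries were made with a stranded kit in another library batch, the labels give the treatment but no dose. The cells were isolated with a commercial CD4 T cell kit, and strain and age are not stated for these cultures in the sources used here.

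When cells meet endoplasmic reticulum stress, amino acid shortage, double-stranded RNA or heme lack, an eIF2 alpha kinase phosphorylates eIF2, general translation falls and the *Atf4* transcript is translated more efficiently. ATF4 then binds DNA as a dimer with other bZIP proteins and raises genes of amino acid uptake and synthesis, and some of its targets feed back on the pathway. Activated T cells depend on amino acid supply, and ATF4 is known to support their metabolic growth.

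The count table held 26874805 and 28487403 counts for the DMSO libraries and 33854760 and 32617702 counts for the MAPK13-IN-1 libraries. Each of the 10 genes had at least 1001 counts in every library. Levels are given as CPM, counts relative to the library size after edgeR's TMM scaling. Differences are MAPK13-IN-1 minus DMSO as log2 fold changes ± SE, 2 libraries against 2, from edgeR's quasi-likelihood test. Each SE was derived from that test's F statistic. The p-values were adjusted over all genes tested by the Benjamini-Hochberg method, and genes were called under 0.05. A second rule, edgeR's glmTreat, called genes whose change exceeded 1.5-fold. The replicate 1 values, read as FPKM (sequenced fragments per unit of transcript length and of library size), have an unknown depth and 1 library per group, with no test and no replicate check. Each fold given for a single gene in that pair is the plain ratio of its FPKM values, whereas log2 ratios, medians and counts past 1.5-fold are on the log2(FPKM + 1) scale, which understates the change of low genes. The labels do not say whether replicates came from separate cultures, so p-values measure only the spread between these libraries, which may be technical. Replicates of the count table differed by more than sampling noise, with a mean chi-square per gene of 3.08 in DMSO and 9.60 with the inhibitor. Where 1 library is left out below, its group is left with a single library, the spread comes from the pair of the other group alone, and the single library is assumed to vary like that pair.

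The labelled cell type was checked against its markers, summed here in CPM of the unscaled library totals. Counts of markers that fell or rose stand beside 32.3% lower and 31.5% higher among all genes tested. The 8 CD4 T cell markers, led by *Cd5*, summed to 1696 and 1718 in the DMSO libraries, to 992 and 1110.3 in the MAPK13-IN-1 libraries, and to 1265 and 1127 FPKM in the replicate 1 pair (DMSO first). Of the 8, 7 fell in the count table. The other was *Cd4* itself, which was not called. Its mean TMM-scaled CPM was 275.2 in DMSO and 275.1 with the inhibitor, and it was at 118 and 146 FPKM in the replicate 1 pair. The 11 B cell markers analysed, led by *Pax5*, were also abundant in the count table, at 1105 and 1077 in DMSO and 1387 and 1398 with the inhibitor, where 8 of 11 rose (5 without either DMSO library) and 2 fell. They reached 54.2 and 38.6 FPKM in the replicate 1 pair, with *Pax5* at 2.59 and 1.27 FPKM, so the cells in the count libraries may differ from those in the replicate 1 pair, which was not tested and bears on each comparison between them. The 9 erythroid markers, led by *Hbb-bs* with the inhibitor only, summed to 10.1 and 9.86 in DMSO and 95.8 and 69.2 with the inhibitor. Of 8 tested, 6 rose and 1 fell, a fall lost without either DMSO library or MAPK13-IN-1 replicate 2. The 9 summed to 1.01 and 2.04 FPKM in the replicate 1 pair. The 7 macrophage markers, led by *Cd68*, summed to 13.1 and 11.4 in DMSO and 43.9 and 36.4 with the inhibitor (5 of 6 tested rose), and to 2.95 and 9.26 FPKM. The pair of CD8 T cell markers, led by *Cd8b1*, summed to 11.2 and 10.4 in DMSO and 5.76 and 8.16 with the inhibitor, where both fell, and to 3.49 and 8.39 FPKM. NK cell markers (4, led by *Klrb1c*, none tested) and neutrophil markers (5, led by *Mpo*, 1 tested, which rose) each summed to under 1 in every library, with 0 counts of *Klra8* and *S100a9* in all 4 libraries. A count of 0 allows up to 3 counts, or 0.0886 to 0.112 CPM on the same unscaled totals, for counting error only. These marker levels moved with the treatment, and their part in the differences below was not tested. In such bulk samples, fewer cells of a type and less RNA per cell cannot be told apart.

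With MAPK13-IN-1, *Atf4*, *Atf5*, *Ddit3*, *Cebpg* and *Trib3* fell, *Eif2ak3* and *Eif2ak4* rose, and *Eif2ak1*, *Eif2ak2* and *Ppp1r15a* were not called. The 5 genes called lower compare with 32.3% of all genes tested called lower, and the 2 called higher compare with 31.5%. The 10 genes were chosen with earlier results of these data known, so these comparisons are not an independent check. Beyond 1.5-fold, 5 of the 10 were lower, beside 12.8% of all genes tested, and 1 was higher, beside 13.2%. The median log2 fold change of the 10 genes was -0.58, beside 0.012 for all genes tested. In the replicate 1 pair, the same 5 genes were lower by more than 1.5-fold, beside 7.53% of the 11510 genes with at least 1 FPKM in either library, and 2 (*Eif2ak2* and *Eif2ak3*) were higher by more than 1.5-fold, beside 17%. The median log2 ratio of the 10 genes in that pair was -0.42, beside 0.079 for those 11510 genes. The direction in the replicate 1 pair was that of the count table for 7 of the 10 genes.

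**Figure D1:**
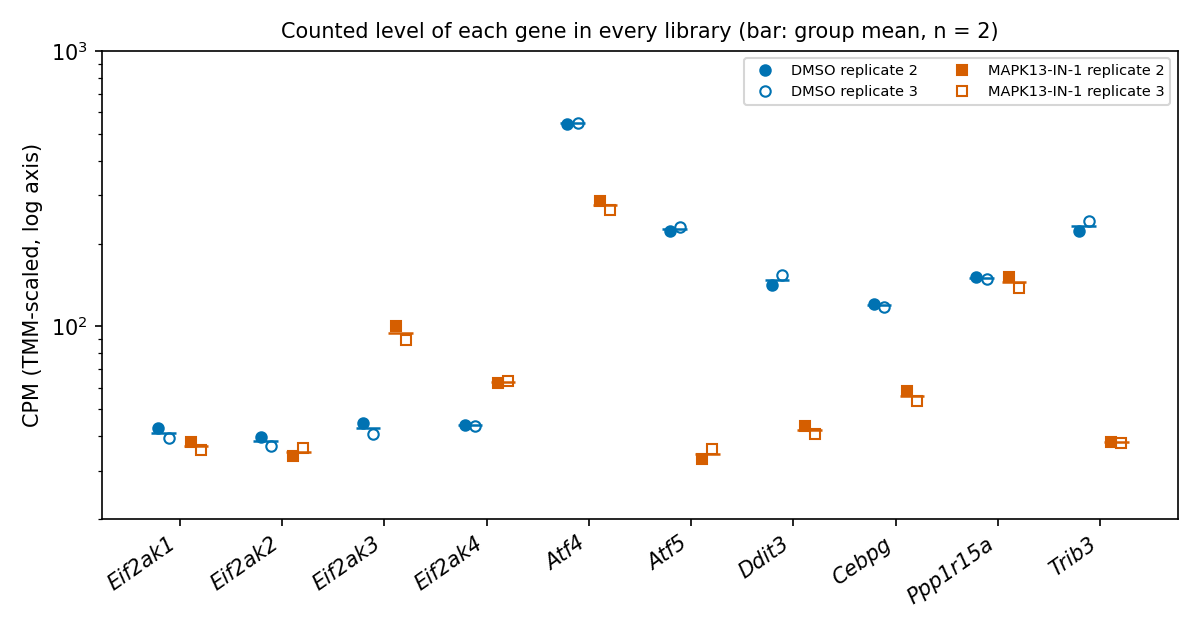
TMM-scaled CPM on a log axis for each of the 10 genes, with 1 point per library (circles DMSO, squares MAPK13-IN-1, filled for replicate 2 and open for replicate 3) and a short bar at each group mean (n = 2). *Atf5*, *Ddit3* and *Trib3* drop from between 141 and 242 CPM in DMSO to between 33.0 and 43.4 CPM with the inhibitor, whereas the groups meet for *Ppp1r15a*.

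Among the kinases, *Eif2ak3* encodes PERK, the kinase in the endoplasmic reticulum membrane that responds to unfolded proteins. Its level was 44.6 and 40.7 CPM in DMSO replicates 2 and 3 and 101 and 89.0 CPM in MAPK13-IN-1 replicates 2 and 3. Both inhibitor libraries lay above both DMSO libraries. The group means were 42.7 ± 2.78 and 94.8 ± 8.21 CPM (SD, n = 2), a 2.22-fold rise (log2 fold change 1.15 ± 0.082 SE, 95% confidence interval 0.97 to 1.33, adjusted p = 1.14e-06 from edgeR). *Eif2ak3* was the only gene of the 10 that was called higher beyond 1.5-fold (adjusted p = 5.54e-05 from edgeR's glmTreat). In the replicate 1 pair it was at 5.98 FPKM in DMSO and 12.1 FPKM with the inhibitor, 2.02-fold higher. A transcript of the opposite strand, *Gm43292*, which was not analysed here, overlaps 485 of the 4841 exon bases of *Eif2ak3* (10.0%).

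*Eif2ak4* encodes GCN2, the kinase activated by uncharged tRNA when amino acids run short. It was at 44.0 and 43.5 CPM in the DMSO libraries and at 62.4 and 63.2 CPM in the MAPK13-IN-1 libraries. The groups did not overlap, and replicates lay closer together than for *Eif2ak3*. The rise was 1.44-fold (log2 fold change 0.52 ± 0.070 SE, 95% confidence interval 0.37 to 0.68, adjusted p = 8.81e-05 from edgeR) and was not called beyond 1.5-fold. The replicate 1 libraries gave 5.22 FPKM in DMSO and 5.79 FPKM with the inhibitor, a 1.11-fold higher value.

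*Eif2ak1* encodes HRI, the kinase restrained by heme. It was at 42.9 and 39.5 CPM in DMSO and at 37.9 and 35.7 CPM with the inhibitor. The lower DMSO library and the higher inhibitor library were thus close, though the groups did not overlap. The difference did not pass the test (log2 fold change -0.16, 95% confidence interval -0.35 to 0.021, adjusted p = 0.109 from edgeR), but without MAPK13-IN-1 replicate 2 it passed as lower, at -0.21 (adjusted p = 0.0229 from edgeR, with 0.0229 to 0.717 as the range over all alternatives). That value has no replicate in the inhibitor group and takes its spread from the DMSO pair. The direction was opposite in the replicate 1 pair, with 13.7 FPKM in DMSO and 17.9 FPKM with the inhibitor. Exons of *Aimp2* on the opposite strand, itself at 53.9 CPM in DMSO and 56.9 CPM with the inhibitor, overlap 487 of the 4325 exon bases of *Eif2ak1* (11.3%), and the use of strand in counting is not given in the sources used here.

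*Eif2ak2* encodes PKR, which binds double-stranded RNA and is itself an interferon-induced gene. It stood at 39.9 and 36.8 CPM in DMSO and at 34.01 and 36.1 CPM with the inhibitor. The DMSO replicate 3 and MAPK13-IN-1 replicate 3 libraries were nearly level. The log2 fold change of -0.13 (95% confidence interval -0.32 to 0.057, adjusted p = 0.200 from edgeR) did not pass the test. The replicate 1 pair differed, with 5.07 FPKM in DMSO and 11.9 FPKM in MAPK13-IN-1, a 2.35-fold higher value and the largest ratio upward among the 10 genes in that pair. Among 20 interferon response genes tested, 10 rose (6 without either DMSO library) and 5 fell in the count table (median log2 fold change 0.25), beside 31.5% higher and 32.3% lower among all genes tested. In the replicate 1 pair the median log2 ratio of the 17 with at least 1 FPKM was 0.84, beside 0.079 for all such genes. The 3 with the smallest p are given with mean CPM in DMSO and then with the inhibitor. *Oas3*, an oligoadenylate synthetase (30.8 to 11.8 CPM), and the transcription factor *Irf7* (6.01 to 1.98 CPM) fell. *Ifit3*, a binder of foreign RNA (0.627 to 9.57 CPM), rose. Its log2 fold change was 3.93, and it was 3.31 without MAPK13-IN-1 replicate 2 and 4.36 without MAPK13-IN-1 replicate 3. As with *Eif2ak2*, *Oas3* and *Irf7* had values on the other side in the replicate 1 pair. There *Oas3* was at 2.95 FPKM in DMSO and 9.34 FPKM with the inhibitor, and *Irf7* at 2.38 and 6.22 FPKM. *Ifit3* was at 0.344 and 0.470 FPKM, under 1 FPKM in both libraries.

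*Atf4* encodes the bZIP factor translated when eIF2 is phosphorylated. Its transcript was at 543 and 549 CPM in DMSO and at 286 and 264 CPM with MAPK13-IN-1. Both inhibitor libraries lay far under both DMSO libraries. Means were 546 ± 4.31 and 275 ± 15.1 CPM (SD, n = 2), a 1.99-fold fall (log2 fold change -0.99 ± 0.055 SE, 95% confidence interval -1.11 to -0.87, adjusted p = 2.50e-07 from edgeR), which was also called beyond 1.5-fold (adjusted p = 3.52e-05 from edgeR's glmTreat). Replicate 1 values of *Atf4* were 249 FPKM in DMSO and 118 FPKM with the inhibitor, 2.103-fold lower. These are transcript levels, and neither ATF4 protein nor eIF2 phosphorylation is measured by them.

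Of the bZIP relatives, *Atf5* encodes a factor whose translation, like that of ATF4, is favoured by eIF2 phosphorylation. Its level was 223 and 230.2 CPM in the DMSO libraries and 33.0 and 35.9 CPM in the MAPK13-IN-1 libraries. The higher inhibitor library stayed far under the lower DMSO library. This 6.58-fold fall was the largest of the 10 genes (log2 fold change -2.72 ± 0.068 SE, 95% confidence interval -2.87 to -2.57, adjusted p = 2.99e-09 from edgeR), and by p-value *Atf5* ranked 5 among the 16269 genes tested. The replicate 1 libraries held 84.2 FPKM in DMSO and 23.7 FPKM with the inhibitor, 3.55-fold lower. Exons of *Il4i1* and *Nup62* on the opposite strand overlap *Atf5* by 82 of its 1993 exon bases (4.11%). Of these neighbours, *Il4i1* was at 76.0 CPM in DMSO and 9.41 CPM with the inhibitor, and *Nup62* was at 182 and 157 CPM.

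*Ddit3* encodes CHOP, a C/EBP family member that dimerizes with ATF4 and is linked to cell death under lasting stress. It was at 141 and 154 CPM in DMSO and at 43.4 and 40.6 CPM with the inhibitor. No inhibitor library came near the DMSO range. The fall was 3.51-fold (log2 fold change -1.81 ± 0.071 SE, 95% confidence interval -1.97 to -1.65, adjusted p = 3.14e-08 from edgeR). Replicate 1 values of *Ddit3* were 117 FPKM in DMSO and 47.0 FPKM with the inhibitor, 2.49-fold lower. Exons of *Mars1*, the methionyl-tRNA synthetase gene on the opposite strand, overlap 68 of the 890 exon bases of *Ddit3* (7.64%), and *Mars1* itself fell from 151 to 59.7 CPM (log2 fold change -1.34, adjusted p = 1.05e-07 from edgeR). No other overlap with a gene of the opposite strand, beyond those given here for *Eif2ak1*, *Eif2ak3*, *Atf5* and *Ddit3*, exceeded 4.03% of a gene's exon bases.

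*Cebpg* encodes C/EBP gamma, a partner with which ATF4 binds DNA. It was at 121 and 117 CPM in DMSO and at 58.2 and 53.6 CPM with the inhibitor. Its groups lay apart as those of *Atf4* did. The fall was 2.13-fold (log2 fold change -1.09 ± 0.068 SE, adjusted p = 4.53e-07 from edgeR), and the 95% confidence interval of -1.24 to -0.94 overlapped that of *Atf4*. *Cebpg* was at 23.8 FPKM in DMSO replicate 1 and at 11.7 FPKM, 2.04-fold lower, in MAPK13-IN-1 replicate 1.

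Of the feedback factors, *Trib3* encodes a pseudokinase that is induced by ATF4 and restrains it. It was at 222 and 242 CPM in DMSO and at 38.1 and 37.7 CPM with the inhibitor. The inhibitor libraries were nearly equal, and both lay far under the DMSO libraries. The fall was 6.12-fold (log2 fold change -2.61 ± 0.068 SE, adjusted p = 3.43e-09 from edgeR), and its 95% confidence interval of -2.76 to -2.46 overlapped that of *Atf5*. *Trib3* in the replicate 1 pair was at 91.8 FPKM in DMSO and 14.7 FPKM with the inhibitor, 6.24-fold lower and the lowest ratio of the 10 genes in that pair.

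*Ppp1r15a* encodes GADD34, the stress-induced subunit that directs protein phosphatase 1 to eIF2 alpha and so reverses the kinases. It was at 151 and 149 CPM in DMSO and at 151 and 138 CPM with the inhibitor. MAPK13-IN-1 replicate 2 lay between the DMSO libraries, so the groups overlapped. The log2 fold change of -0.055 (95% confidence interval -0.19 to 0.083, adjusted p = 0.461 from edgeR) did not pass the test and turned to 0.026 with upper-quartile scaling and to 0.071 with library totals alone. Without MAPK13-IN-1 replicate 2 it passed as lower, at -0.12 (adjusted p = 0.0436 from edgeR, with 0.0436 to 0.991 as the range over all alternatives), again with a single inhibitor library and the spread of the DMSO pair. *Ppp1r15a* in the replicate 1 pair was at 29.5 FPKM in DMSO and 37.2 FPKM with the inhibitor, 1.26-fold higher.

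**Figure D2:**
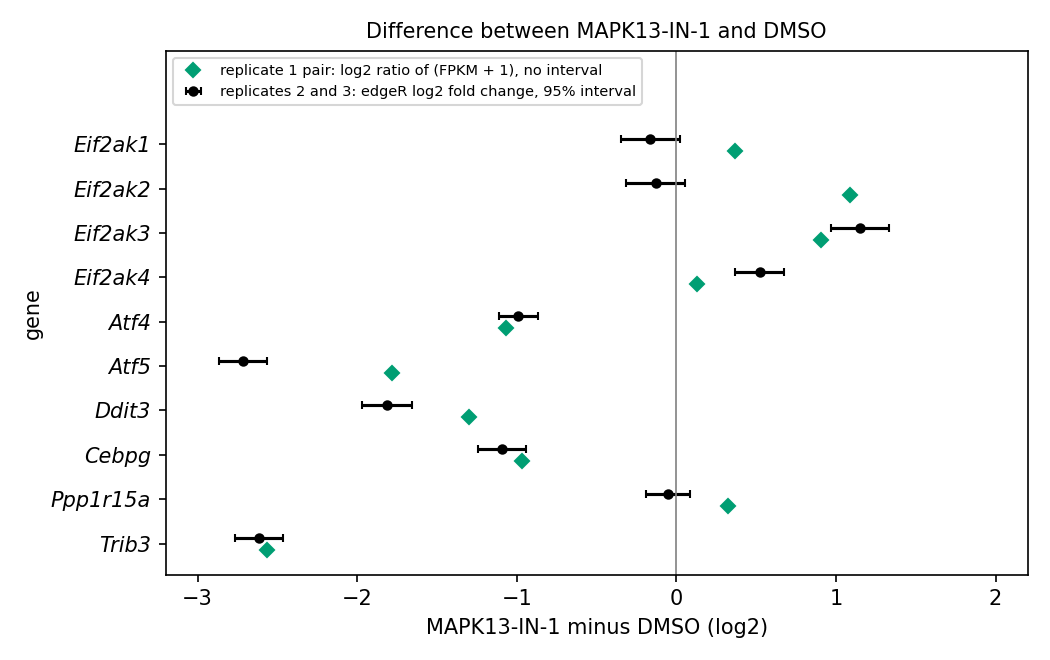
Difference between MAPK13-IN-1 and DMSO on a log2 scale for each of the 10 genes: black circles are edgeR log2 fold changes of replicates 2 and 3 with their 95% confidence intervals, and green diamonds are log2(FPKM + 1) ratios of the replicate 1 pair, without an interval. The 5 falling genes are on the same side in both, with *Atf5* at -2.72 and -1.78, whereas *Eif2ak1*, *Eif2ak2* and *Ppp1r15a* are on opposite sides.

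Divided by exon length, levels can be compared between genes, and neighbours in the order are called level where they differ by less than the sum of their SDs. In DMSO, *Atf4* had the highest level at 317 ± 2.50 CPM per kilobase (SD, n = 2), followed by *Ddit3* at 166 ± 9.93. *Trib3* (115 ± 7.06) and *Atf5* (114 ± 2.69) came next and were level. *Ppp1r15a* at 51.1 ± 0.604 and *Cebpg* at 23.8 ± 0.533 followed, and every kinase was lower. *Eif2ak1* (9.53 ± 0.562), *Eif2ak2* (8.89 ± 0.501) and *Eif2ak3* (8.81 ± 0.574) were level in turn, above *Eif2ak4* at 6.02 ± 0.0538. With MAPK13-IN-1, *Atf4* was still first at 159 ± 8.78 CPM per kilobase, and *Ppp1r15a* (49.2 ± 3.00) stood level with *Ddit3* (47.2 ± 2.19). *Eif2ak3* rose to 19.6 ± 1.70 CPM per kilobase, level with *Trib3* at 18.7 ± 0.121, while *Atf5* at 17.3 ± 1.02 lay under *Trib3* and above *Cebpg* at 11.2 ± 0.653. The other kinases, *Eif2ak4* (8.65 ± 0.0839), *Eif2ak1* (8.51 ± 0.367) and *Eif2ak2* (8.13 ± 0.342), were lowest and level. In the FPKM of the replicate 1 pair, *Atf4* and *Ddit3* were the highest of the 10 genes in both libraries. The lowest was *Eif2ak2* in DMSO, next to *Eif2ak4*, and *Eif2ak4* with the inhibitor.

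The genes of the substrate of the kinases and of its exchange factor come next, with means given as DMSO to MAPK13-IN-1. The counts of genes that fell or rose in each list stand beside 32.3% lower and 31.5% higher among all genes tested, and the median log2 ratio of each list in the replicate 1 pair, over its genes with at least 1 FPKM, beside 0.079 for all such genes. Over the genes of the pathway lists named as falling or rising, SEs of the log2 fold change ran from 0.050 to 0.41 and adjusted p-values from 1.26e-09 (*Stc2*) to 0.0248 (*Eif2b4*) in edgeR. Of the 3 eIF2 subunits, *Eif2s1*, the phosphorylated alpha subunit (91.0 to 78.7 CPM), and *Eif2s2* (354 to 293 CPM) fell and *Eif2s3x* rose (212 to 249 CPM), none beyond 1.5-fold, and the call of *Eif2s1* was lost with upper-quartile scaling, with library totals alone and without either DMSO library, and that of *Eif2s3x* without DMSO replicate 3. Their replicate 1 median was -0.10, and *Eif2s3x* was nearly level there, at 48.9 FPKM in DMSO and 48.2 FPKM with the inhibitor. Of the 5 subunits of eIF2B, the guanine nucleotide exchange factor that phosphorylated eIF2 blocks, 4 fell: *Eif2b5* (96.1 to 54.3 CPM, beyond 1.5-fold), *Eif2b3* (17.9 to 11.6 CPM), *Eif2b2* (70.3 to 54.98 CPM) and *Eif2b4* (31.3 to 25.9 CPM). *Eif2b1*, at 33.9 and 35.03 CPM, was not called, and the call of *Eif2b4* was lost with upper-quartile scaling, library totals alone, a stricter filter or DESeq2 and without DMSO replicate 2. The replicate 1 median of the 5 was -0.19. Among 5 eIF2 alpha phosphatase genes, which act beside *Ppp1r15a*, 2 fell (*Ppp1cc*, 273 to 215 CPM, and *Ppp1ca*, 420.3 to 340 CPM) and 1 rose (*Nck1*, 14.1 to 22.6 CPM), with a replicate 1 median of -0.21. Of 9 cofactors and inhibitors of the kinases, 7 fell and 2 rose, with *Tarbp2*, an inhibitor of PKR (51.7 to 21.4 CPM), *Gcn1*, the activator of GCN2 (207 to 119 CPM), and *Hspa5*, the chaperone that holds PERK inactive (646 to 423 CPM), having the smallest p. The median of these 9 genes was -0.42 in the count table and on the other side, at 0.13, in the replicate 1 pair, with *Tarbp2* at 49.4 and 54.0 FPKM, *Gcn1* at 19.3 and 19.1 FPKM and *Hspa5* at 246 and 214 FPKM (DMSO first). Of 6 other initiation factors, *Eif2d* (105 to 85.7 CPM) and *Eif5* (262 to 226 CPM) fell and *Eif2a* rose (82.5 to 129 CPM). Neither fall was called with library totals alone, that of *Eif5* also not with upper-quartile scaling. The replicate 1 median of this list was -0.19. In that pair *Eif2d*, at 36.4 FPKM in DMSO and 40.4 FPKM with the inhibitor, and *Eif2a*, at 36.1 and 29.9 FPKM, were on the other side. *Eif5*, at 92.3 and 73.7 FPKM, was on the same side.

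Around ATF4, 15 other bZIP factors, tribbles and ligase adaptors were tested, of which 6 fell and 4 rose (median log2 fold change -0.22), beside the 32.3% lower and 31.5% higher of all genes tested. In the replicate 1 pair the median of 14 of them was -0.021. *Nfe2l1* (292 to 105 CPM), *Atf3*, itself a stress-induced partner (109 to 51.8 CPM), and *Cebpb* (84.4 to 18.1 CPM) had the smallest p, and *Atf3* was on the other side in the replicate 1 pair, at 34.1 FPKM in DMSO and 61.3 FPKM with the inhibitor. In the IRE1 and ATF6 arms, which respond to unfolded proteins in parallel with PERK, 7 of 12 genes fell and 1 rose (median log2 fold change -0.41), beside those same shares. Their median in the replicate 1 pair was 0.019, beside 0.079 for all genes with at least 1 FPKM there. The smallest p were those of *Atf6b* (63.2 to 15.4 CPM), *Xbp1* (101 to 41.7 CPM) and *Hyou1* (153 to 72.4 CPM), whose replicate 1 values in DMSO and with the inhibitor were 19.1 and 18.6, 39.0 and 34.5, and 34.1 and 27.7 FPKM. Of 39 ATF4 target genes tested, 37 fell and 1 rose. Beyond 1.5-fold, 33 fell, beside 12.8% lower among all genes tested. This list was chosen with earlier results of these data known. It holds genes, *Slc7a5* among them, that the study had already reported as lower, so these counts are not an independent check. The median log2 fold change of the 39 was -1.34, beside 0.012 for all genes tested and -0.99 for *Atf4* itself. Smallest in p were *Stc2*, a secreted glycoprotein (125 to 8.71 CPM), the amino acid transporter *Slc7a5* (606 to 133 CPM) and the leucyl-tRNA synthetase gene *Lars* (269 to 65.8 CPM). The median log2 ratio of the 38 target genes with at least 1 FPKM in the replicate 1 pair was -1.42. Leaving out a library moved the counts of these lists by at most 2 genes (interferon genes aside), and, beyond the eIF2 subunits given above, by over 1.5 times only where few genes rose: without DMSO replicate 3, the bZIP list had 2 and the cofactor list 1, and without MAPK13-IN-1 replicate 3, the phosphatase, initiation factor and IRE1 and ATF6 lists had 2 each.

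The 5 genes outside the 10 and these lists whose profile lay nearest to that of *Atf4*, by Euclidean distance of centred log2(CPM + 0.5) over the 4 libraries of the count table, were *Cldnd2* (0.0189), *Gm12758* (0.0191), *Gm43305* (0.0265), *Prelid3b* (0.0298) and *Bola1* (0.0316). *Prelid3b*, the most abundant of them, was at 55.3 and 56.5 CPM in DMSO and 29.3 and 26.4 CPM with the inhibitor. Their log2 fold changes ran from -1.06 to -1.01, except that of *Cldnd2*. *Cldnd2* was under 1 CPM in every library and had a log2 fold change of -2.14 beside -0.99 for *Atf4*, so its short distance comes from the 0.5 added before the logarithm, which shrinks differences at such low levels. In the replicate 1 pair their log2 ratios ran from -0.65 for *Bola1* to 0.53 for *Cldnd2*, all nearer to 0 than the -1.07 of *Atf4*.

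The 10 genes lie on 7 chromosomes of GRCm38, with *Atf5* (chr7:44812256-44816658), *Ppp1r15a* (chr7:45522916-45526268) and *Cebpg* (chr7:35046422-35056573), all on the minus strand, on chromosome 7, and *Eif2ak4* (chr2:118388618-118475234, plus strand) and *Trib3* (chr2:152337422-152344032, minus strand) on chromosome 2. The remaining genes are *Eif2ak1* (chr5:143817788-143904251, plus), *Eif2ak2* (chr17:78852564-78882573, minus), *Eif2ak3* (chr6:70844515-70905245, plus), *Atf4* (chr15:80255184-80257541, plus) and *Ddit3* (chr10:127290774-127296288, plus). Since 5 of them fell together, RefSeq promoters (GRCm38.p6, 250 bases before to 50 after an annotated start) of all 10 genes, 12 promoters in all, were searched on both strands for the letters of elements of this pathway. The C/EBP-ATF core TGATGNAA occurs in 3.97% of all 32851 promoters, the cAMP response element TGACGTCA in 1.79%, the ATF6 core TGACGTGG in 0.676% and the interferon-stimulated core GAAANNGAA in 8.56%. Of the 5 falling genes, *Trib3* alone held a match, TTACATCA, which is the C/EBP-ATF core read on the other strand, starting 14 bases after the annotated start. *Ppp1r15a*, which was not called, held TGACGTCA starting 12 bases before its start and the interferon core starting 220 bases before it, and *Eif2ak2* held a pair of interferon cores that overlap each other. The other promoters held none of these letters in this window, which says nothing of sites elsewhere. *Atf5* and *Eif2ak4* have a pair of annotated starts each, and the *Atf5* promoter nearer the end of the gene (chr7:44815609-44815908), which held no match, is not printed. The promoters below are those of the 3 genes with the largest falls and of both other genes with a match, with matches in capitals, written 5′ to 3′ along the gene: *Trib3* (chr2:152344011-152344310, minus strand), *Atf5* (chr7:44816609-44816908, minus strand), *Ddit3* (chr10:127290543-127290842, plus strand), *Ppp1r15a* (chr7:45526219-45526518, minus strand) and *Eif2ak2* (chr17:78882523-78882822, minus strand).
Trib3: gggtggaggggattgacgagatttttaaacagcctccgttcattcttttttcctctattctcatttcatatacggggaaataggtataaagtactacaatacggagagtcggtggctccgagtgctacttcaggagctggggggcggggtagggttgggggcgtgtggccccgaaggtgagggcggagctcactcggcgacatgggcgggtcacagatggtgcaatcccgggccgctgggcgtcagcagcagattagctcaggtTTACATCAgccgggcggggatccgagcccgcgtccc
Atf5: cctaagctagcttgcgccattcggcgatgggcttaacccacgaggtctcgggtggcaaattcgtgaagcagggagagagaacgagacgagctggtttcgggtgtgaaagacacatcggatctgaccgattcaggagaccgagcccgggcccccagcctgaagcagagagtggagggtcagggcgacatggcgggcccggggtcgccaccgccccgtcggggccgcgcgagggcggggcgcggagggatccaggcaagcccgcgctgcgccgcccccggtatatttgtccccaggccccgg
Ddit3: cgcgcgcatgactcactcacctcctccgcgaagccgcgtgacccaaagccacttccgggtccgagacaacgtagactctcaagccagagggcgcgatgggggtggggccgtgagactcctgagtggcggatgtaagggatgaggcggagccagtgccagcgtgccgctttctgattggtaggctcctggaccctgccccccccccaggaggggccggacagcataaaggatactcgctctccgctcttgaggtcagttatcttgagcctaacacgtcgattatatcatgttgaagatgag
Ppp1r15a: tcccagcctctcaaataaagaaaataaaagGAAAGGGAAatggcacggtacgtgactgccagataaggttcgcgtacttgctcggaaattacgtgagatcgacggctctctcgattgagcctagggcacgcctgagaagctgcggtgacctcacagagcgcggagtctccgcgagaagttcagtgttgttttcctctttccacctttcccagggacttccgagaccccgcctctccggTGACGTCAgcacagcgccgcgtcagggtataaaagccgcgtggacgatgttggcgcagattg
Eif2ak2: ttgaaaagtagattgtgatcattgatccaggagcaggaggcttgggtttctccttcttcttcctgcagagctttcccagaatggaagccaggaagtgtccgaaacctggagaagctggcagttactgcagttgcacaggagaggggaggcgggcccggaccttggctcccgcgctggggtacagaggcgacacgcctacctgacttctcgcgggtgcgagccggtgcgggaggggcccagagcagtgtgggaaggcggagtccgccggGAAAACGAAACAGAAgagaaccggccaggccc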

How the data were processed

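RNA-seq libraries of 6 CD4+ T cell samples were grouped by their labels. For replicates 2 and 3 the authors deposited raw counts per gene. For replicate 1 the authors deposited 1 normalized value per gene, read as FPKM from the values, which are not whole and sum to 405150 and 390729. Submitters' processing notes name fastp 0.21.0, HISAT2 2.1.0, StringTie 2.1.5 and DESeq2 1.30.1 with mm10 for the count table, and FastQC and HISAT2 with GRCm38/mm10 for replicate 1. Strand use, annotation and the quantifier of replicate 1 are not given in the sources used here.

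Tests on the counts used edgeR 4.0.16 and limma 3.58.1 under R 4.3.3 (filterByExpr with a minimum count of 10 and total of 15, TMM factors of 0.960, 0.955, 1.05 and 1.04, quasi-likelihood test, glmTreat against 1.5-fold, Benjamini-Hochberg adjustment), tested first on simulated counts. Since edgeR's test gives no SE, each was taken as the absolute log2 fold change over the square root of the F statistic. Confidence intervals are at 95%, from these SEs and t quantiles at the test's total degrees of freedom. Alternatives were RLE, upper-quartile and library-total scaling, other filters, a replicate block, DESeq2 1.42.0, each library left out, and a pseudocount of 0.1 or a common sum for replicate 1. Coordinates and exon lengths (the union of exons) come from the GENCODE vM21 basic set on GRCm38. The *Ddit3* length merges a pair of overlapping entries of that name.

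Members and lists were chosen with earlier results of these data known. Genes named are the 10 members, the tested eIF2 and eIF2B subunits, the at most 3 smallest-p genes of each other pathway list, each marker list's most abundant gene and markers at 0, and the 5 genes nearest to *Atf4*. Genes overlapping a member are named outside this rule, by position, and *Cd4* as the labelled marker. *Cd5*, *Pax5*, *Mpo* and *Hbb-bs* were the most abundant of their lists in a single group of the count table. *Ighm*, *Mx1* and *Mx2* were not analysed here.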

Additional observations from a re-analysis of the deposited data

Results flagged for a closer look

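For 3 genes the log2 ratios of the count table's same-numbered libraries were below 0, some of them barely, and that of the replicate 1 pair was above 0. The count libraries are matched here by number only. The replicate 1 log2(FPKM + 1) ratio of MAPK13-IN-1 to DMSO was 0.37 for *Eif2ak1*, where the log2 CPM ratios of pairs 2 and 3 were -0.18 and -0.15. It was 1.09 for *Eif2ak2*, beside -0.23 and -0.028. It was 0.32 for *Ppp1r15a*, beside -0.0060 and -0.11. None of these genes was called in the count table, the difference between the pairs was not tested, and library kit, batch and unit differ between them, as do the summed B cell markers (1077 to 1398 CPM in the count libraries, 38.6 and 54.2 FPKM in the replicate 1 pair).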

How the results depend on the processing

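Over 11 alternatives of the count fit, 106 of 110 log2 fold changes of the 10 genes kept their direction and their side of the threshold. *Ppp1r15a* turned to 0.026 with upper-quartile scaling and to 0.071 with library totals alone, and without MAPK13-IN-1 replicate 2 *Eif2ak1* and *Ppp1r15a* passed as lower, so 7 genes in place of 5 did. That fit has a single inhibitor library, assumed to vary like the DMSO pair, which alone gives the spread. The causes were not tested. In every alternative the 5 falling genes and *Eif2ak3* were called beyond 1.5-fold. *Eif2ak4* rose in all of them and was not called beyond 1.5-fold in any, though its estimate of 0.60 with upper-quartile scaling and of 0.65 with library totals alone exceeded that fold (0.58 on the log2 scale). With library totals alone the median of all genes moved from 0.012 to 0.14, above the 0.071 of *Ppp1r15a*, and the split beyond 1.5-fold from 2088 lower and 2145 higher to 1654 lower and 2687 higher. DESeq2 called 2244 genes beyond 1.5-fold in place of 4233.

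Of the 40 other genes named by the rule above and tested, 422 of 438 values kept direction and call and 14 lost the call. *Eif2b1*, not called, was at -0.036 without DMSO replicate 2 and at -0.0028 without MAPK13-IN-1 replicate 2, and otherwise ran up to 0.12 without DMSO replicate 3 and 0.17 with library totals alone. The falls of *Eif2s1*, *Eif2b4*, *Eif2d* and *Eif5* and the rises of *Eif2s3x* and *Mpo* were those that lost it in at least 1 alternative. The medians of the eIF2 alpha phosphatase and initiation factor lists turned sign with library totals alone, from -0.10 to 0.022 and from -0.054 to 0.071, and the latter also with upper-quartile scaling and without MAPK13-IN-1 replicate 3. The pseudocount or a common sum moved no replicate 1 ratio of the 10 genes by more than 0.13.

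Same-numbered libraries showed no shared shift. Their deviations from their group means had a correlation of -0.0064 across 16269 genes, which are not independent. With 2 libraries per group, this cannot show whether same-numbered libraries came from the same mice or culture. A fit with the replicate block called 10645 genes in place of 10374, with 5 of the 10 genes lower and 2 higher as before. Depth limits the NK and neutrophil markers, near a count of 0, and for replicate 1 it is unknown.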
